A study of Mus musculus with 39 samples.

Results

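Rgs5 was followed across 39 single cells of adult mouse liver. It is 1 of the 10061 gene symbols in the deposited table, and it was taken up because of its levels in these same cells. At 100 CPM or more it was found in 8 cells, and 31 had almost none. CPM is a value read here as counts-per-million of the cell's sequencing depth, a scale inferred from the values. Cells summed to 351255 to 3.12833e+06 CPM, so 100 CPM is a different fraction of each cell's sum. All 39 cells formed 1 group. They came from Krt19CreERT/Rosa26CAG-EGFP mice, in which a Cre recombinase driven by Krt19, a keratin of bile duct epithelium, switches on a green fluorescent protein. A cell sorted as green had therefore used Krt19-driven Cre itself or descended from a cell that had. Sorted cells were picked one at a time for sequencing, and the labels named no animal, age, sort, plate or sequencing run. Cells without a named animal are not replicates of a condition, so every value below is a description and no test between cells was made. Groups of cells defined by Rgs5 were defined by the measurement itself.

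Rgs5 is a small regulator of G protein signalling of the R4 family. Such proteins speed up the hydrolysis of GTP by activated G alpha subunits of the Gi and Gq classes, which shortens the signal of G protein coupled receptors. Rgs5 is widely used as a marker of pericytes and other vascular mural cells, and in liver of hepatic stellate cells. Its protein is short-lived, since it is a target of the N-degron pathway, which destroys proteins by their N-terminal residue.

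The deposited table held Rgs5 as 1 RefSeq transcript row. The gene lies on mouse chromosome 1, and no other gene of the RefSeq table (GRCm38.p6) overlapped it. The bases before its start site are shown because every comparison below concerns whether the gene gave RNA in a cell. The 250 bases run from chr1:169655251-169655500 on the + strand of GRCm38.p6, a later build than the mm9 of the submitters' processing notes. Capitals mark the letters of 2 promoter motifs found there.
Rgs5 promoter: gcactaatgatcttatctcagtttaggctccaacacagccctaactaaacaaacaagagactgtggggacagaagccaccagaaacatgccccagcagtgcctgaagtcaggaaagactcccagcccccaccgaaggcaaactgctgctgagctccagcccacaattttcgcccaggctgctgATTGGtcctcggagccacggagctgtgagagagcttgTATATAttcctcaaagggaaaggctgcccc
ATTGG, the reverse of the CCAAT box on the other strand, began 67 bases before the start. It is found on either strand in 33.8% of 32851 RefSeq promoters of the same length. TATATA began 30 bases before the start and is found in 5.25% of them. The strict TATA box letters TATAAA (12.4% of promoters), the hypoxia element core ACGTG (16.6%) and the E-box CANNTG (66.2%) were absent from this window on both strands. GC content was 53.6%, against a median of 52.4% over all promoters. These matches describe letters only.

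Rgs5 was either abundant or close to absent. The cells with it at 100 CPM or more, called Rgs5 cells here, held 1842 CPM in cell 19, 267 in cell 20, 515 in cell 25, 1111 in cell 27, 1576 in cell 28, 1976 in cell 30, 1578 in cell 31 and 3743 in cell 34. Cell 34 was highest and cell 20 lowest, 14.0-fold apart, with a median of 1577 CPM. A level of 1000 CPM was reached in 6 of the 8. Rgs5 ranked 24 among all genes in the cell where it ranked best, 158.5 at the median and 674 where it ranked worst. The order of the 8 levels cannot be set against an error, since each cell was measured once.

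Of the other 31 cells, 18 were listed at 0 for Rgs5. The highest were cell 26 at 1.94 CPM and cell 13 at 1.62 CPM, and no further cell exceeded 0.377 CPM. No cell lay between 1.94 and 267 CPM, so any threshold in that interval returns the same 8 cells. Of 3615 genes at 100 CPM in at least 4 cells, 99 (2.74%) likewise had no cell between 2 and 100 CPM, and the median gene had 7 cells there. An abundance of 1 read was estimated for cells 1 to 37 from the most frequent low value of each cell. On that estimate the Rgs5 cells held 3943 reads (cell 20) to 29406 reads (cell 30), cell 26 held 14 and cell 13 held 32.1. Reads carried no molecular identifiers, so these are not numbers of molecules. A 0 is reported only as listed at 0, because some cells listed even housekeeping genes at 0 (5 of the 12 followed).

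**Figure D1:**
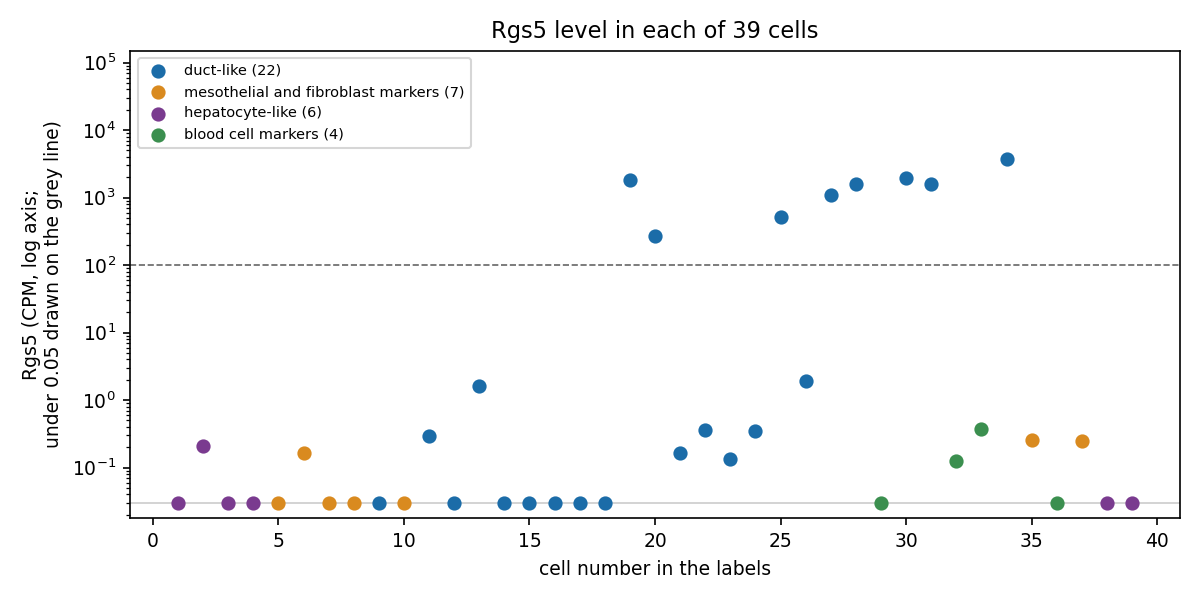
Rgs5 level (CPM, log axis, with values under 0.05 CPM drawn on the grey line) in each of the 39 cells, by cell number, coloured by cell class. The 8 Rgs5 cells lie between 267 and 3743 CPM, and no cell lies between 1.94 and 267 CPM.

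Rgs5 was found in duct-like cells. Cells were sorted into 4 classes by clustering 135 cell type markers with Rgs5 left out, and the class with the most cholangiocyte markers, 22 cells led by Spp1, Tm4sf4, Cdh1, Krt18 and Krt8, is called duct-like. All 8 Rgs5 cells were in it, which is 36.4% of its cells (exact Clopper-Pearson 95% interval 17.2% to 59.3%, covering the choice of cells alone). With duct-like cells defined by marker counts, as described further on, 4 of 18 were Rgs5 cells. Over all 39 cells the share was 20.5% (9.30% to 36.5%). The other classes held 6 hepatocyte-like cells, 7 cells with mesothelial and fibroblast markers, and 4 cells with blood cell markers. None of these 17 cells reached 100 CPM of Rgs5, which allows a share of up to 19.5%, and their highest value was 0.377 CPM.

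The Rgs5 cells also had high cell numbers. All 8 were numbered 19 to 34, where they were 8 of 13 duct-like cells (61.5%, 31.6% to 86.1%). None of the 9 duct-like cells numbered 9 to 18 reached 100 CPM (0%, up to 33.6%). The labels attach no batch to a cell number, and whether the numbers follow a plate, a day or an animal was not tested. For that reason, the 5 other duct-like cells numbered 19 or higher are used as a closer comparison below.

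Duct epithelial RNA was present in each Rgs5 cell. Of 27 measured cholangiocyte markers, 12, 9, 14, 11, 11, 11, 7 and 11 were at 100 CPM or more in cells 19, 20, 25, 27, 28, 30, 31 and 34, against 8 to 16 (median 12.5) in the 14 other duct-like cells. Spp1, the secreted phosphoprotein osteopontin, was at 100 CPM in all 22 cells, with medians of 20254 CPM in the Rgs5 cells and 13190 CPM in the others. Krt18, a keratin of simple epithelia, was also at 100 CPM in all 22. Its partner Krt8 was at that level in 8 of 8 and 12 of 14, and the membrane protein Tm4sf4 in 7 of 8 and 14 of 14. Sox9, a transcription factor of duct cells, was at 100 CPM in 5 of 8 and 3 of 14. Krt19, which drives the lineage label, was at 100 CPM in 2 of 8 (617 CPM in cell 19 and 166 in cell 20) and in 9 of 14. Prom1, a surface protein of duct progenitors, was at that level in 1 of 8 and 7 of 14, and Pkhd1, a protein of the primary cilium, in 1 of 8 and 6 of 14. The water channel Aqp1 and the mucin Muc1 were below 1 CPM in every Rgs5 cell and at 100 CPM in 4 and 3 of the 14. Of 22 cholangiocyte markers examined, 0 met the criterion for a difference that is defined further on. Of all genes examined, 3.59% met it as higher and 0.455% as lower. The median difference of the 22 was -3.57 points, against 7.14 over all genes examined. Against the 5 other duct-like cells numbered 19 or higher, 3 cholangiocyte markers met it: Krt19 (-55 points), Cldn4 (-50) and Anxa4 (50). In that comparison 6.94% of all genes examined met it as higher and 1.82% as lower. With 5 cells, 1 cell is a large step in the share, so these 3 calls are no result about the list.

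Markers of mural cells, for which Rgs5 is best known, were mostly near 0 in the Rgs5 cells. Of 30 listed mural cell and pericyte markers 9 were measured, and Pdgfrb and Des are not analysed here. Vtn (vitronectin), which hepatocytes also secrete, was the sole one at 100 CPM in an Rgs5 cell, with 3414 CPM in cell 28, 587 in cell 30 and 953 in cell 31. The contractile actin Acta2 did not exceed 1.28 CPM in any Rgs5 cell. Cspg4, the pericyte proteoglycan NG2, did not exceed 4.60 CPM, Mcam 34.0 CPM and the channel subunit Abcc9 56.4 CPM. Summed over the 9 genes, levels were 0.674 to 3414 CPM (median 7.72) in Rgs5 cells and 3.02 to 554 CPM (median 11.9) in the other duct-like cells. The 2 ranges overlapped.

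Stellate cell markers were sparse in the same way. Of 25 listed, 7 were measured. Lrat, which esterifies retinol for storage, and Ecm1 were below 1 CPM in all 8 Rgs5 cells, and the neurotrophin receptor Ngfr reached 2.98 CPM at most. Reln was at 100 CPM in cell 31 alone (143 CPM). The summed list ran from 3.16 to 2565 CPM in Rgs5 cells and from 1.98 to 3969 CPM in the others. Of 7 measured endothelial markers, Cdh5, Stab1, Clec4g, Esam and Ramp2 were below 1 CPM in every Rgs5 cell. Egfl7, a secreted factor of endothelium, was at 488 CPM in cell 25 and 143 CPM in cell 28, listed at 0 in the other 6, and at most 0.435 CPM in the other duct-like cells.

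Hepatocyte markers divided the Rgs5 cells. Of 30 measured, 2, 2, 4, 11, 11, 12, 13 and 2 were at 100 CPM in the cells in the order above, so cells 27, 28, 30 and 31 held 11 to 13 and cells 19, 20, 25 and 34 held 2 to 4. The 14 other duct-like cells held 1 to 6 (median 2). Summed hepatocyte markers were 1342 to 49517 CPM (median 12292) in Rgs5 cells and 240 to 41271 CPM (median 5795) in the others. When a cell is instead called duct-like only if it has more cholangiocyte markers than markers of any other list, 18 cells qualify and 4 of them are Rgs5 cells, because cells 27, 28, 30 and 31 drop out. No doublet caller was run, and the part of a captured neighbouring cell or free hepatocyte RNA in these values was not tested.

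**Figure D2:**
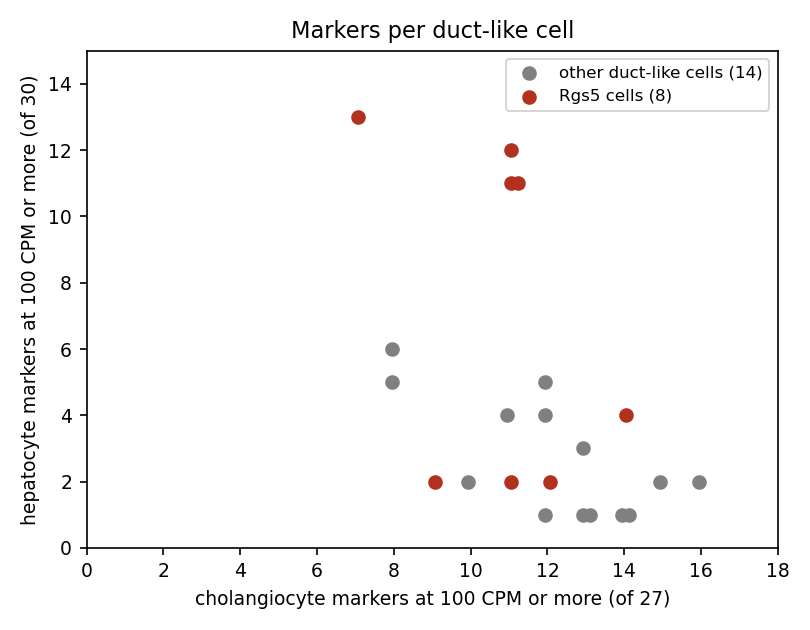
Number of measured hepatocyte markers at 100 CPM or more (of 30, y axis) against the number of cholangiocyte markers (of 27, x axis) in the 22 duct-like cells, each cell a point, with Rgs5 cells in red and points moved slightly sideways where they coincide. Of the 8 Rgs5 cells, 4 have 11 to 13 hepatocyte markers and 4 have 2 to 4, the latter within the 1 to 6 of the other duct-like cells.

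The 4 hepatocyte-rich Rgs5 cells and the 4 remaining ones differed in named genes on both sides, a split made after the values were seen. Albumin (Alb) was at 1318 to 4206 CPM in cells 27, 28, 30 and 31 and at 0 to 4.69 CPM in cells 19, 20, 25 and 34. The liver glycoprotein Ahsg was at 2006 to 4082 CPM against at most 0.457 CPM, and the thyroxine carrier Ttr at 300 to 682 CPM against at most 2.43 CPM. All 3 are among the markers that made the split, so their separation follows from it. Of the 30 hepatocyte markers, 16 reached 100 CPM in at least 1 Rgs5 cell. Serpina1a (up to 2576 CPM), Fga (1259) and Hpx (707) did so in 3 of the 4 hepatocyte-rich cells, and Fgb (6703) in 2. In the 4 remaining cells none of these did, which also follows in part from the split. Other abundant hepatocyte transcripts stayed below 100 CPM in both: Fabp1, Apoa2 and Apoc3 reached 100 CPM in no Rgs5 cell, and Apoa1 reached 95 CPM at most. In the opposite direction, the tight junction protein Cldn4 was at 0.161 to 1.95 CPM in the hepatocyte-rich cells and at 3565 to 8976 CPM in the rest. The duct keratin Krt7 was at most 0.0832 CPM in the former and at 100 CPM in 3 of 4 of the latter (up to 1631 CPM). Epcam, the epithelial adhesion molecule, was listed at 0 in the 4 hepatocyte-rich cells and ran from 7.89 to 1596 CPM in the rest. Anxa4, a duct annexin, went the other way, with 127 to 1372 CPM against 0.673 to 36.8 CPM. Rgs5 itself overlapped, at 1111 to 1976 CPM and 267 to 3743 CPM. Among the 14 other duct-like cells, Alb was at 100 CPM in 9 and Cldn4 in 7.

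Genes that accompanied Rgs5 were sought by the share of cells at 100 CPM or more in the 8 Rgs5 cells and in the 14 other duct-like cells. A gene was counted as higher or lower when the 2 shares differed by at least 50 percentage points. Of 1757 genes at 100 CPM in at least 4 duct-like cells, 63 (3.59%) were higher and 8 (0.455%) lower. The cells were divided by Rgs5, so these counts are descriptions. The filter also favours higher calls, because a gene examined through Rgs5 cells alone always has 50 points or more. With Rgs5 included, 33 genes were at 100 CPM in at least 4 Rgs5 cells and in no other duct-like cell. A gene at 100 CPM in only 4 of the 14 others, such as Aqp1 (-28.6 points), is not called lower. The 2 percentages are therefore not on an equal footing. The whole distribution leaned toward the Rgs5 cells: the median difference was 7.14 points, and 60.7% of genes had a higher share in them. Rgs5 cells also held more genes at 100 CPM, 762 to 1121 (median 1036) against 581 to 1196 (median 806.5), and the part of this in the excess was not tested. Ranking instead of thresholding, with the 900 highest genes of each cell counted as present, gave 39 higher and 14 lower. Against the 5 other duct-like cells numbered 19 or higher, the counts were 122 and 32.

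**Figure D3:**
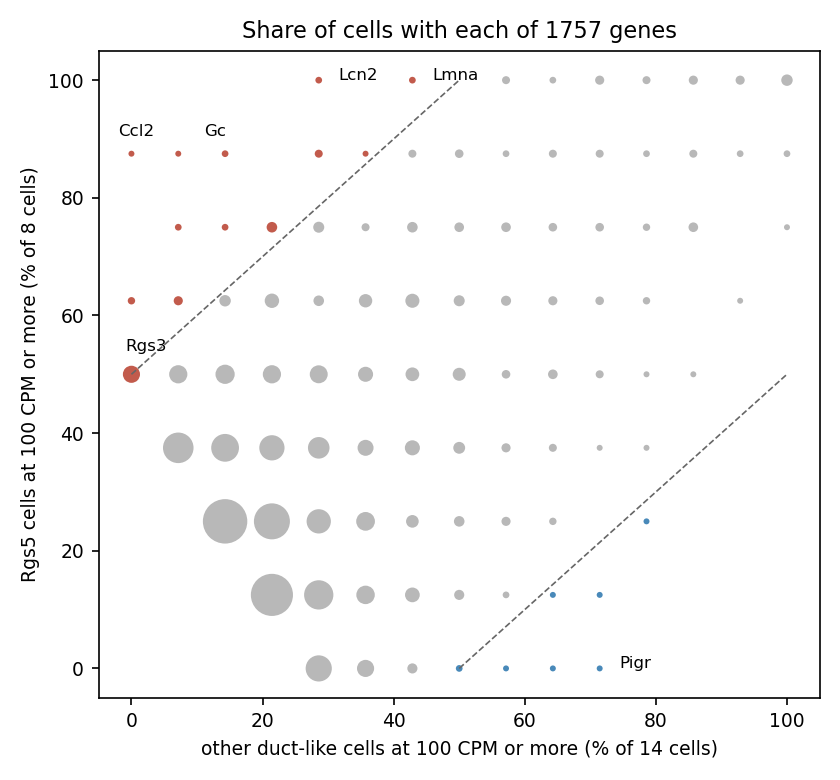
Percent of the 8 Rgs5 cells (y axis) against percent of the 14 other duct-like cells (x axis) with a gene at 100 CPM or more, each point 1 or more of the 1757 genes, its area growing with their number. Dashed lines mark a difference of 50 percentage points, which 63 genes exceed or meet above and 8 below.

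Ccl2 had the largest difference. It encodes a chemokine that attracts monocytes and was at 816, 856, 570, 4943, 18494, 232, 201 and 0 CPM in cells 19, 20, 25, 27, 28, 30, 31 and 34. It was at 100 CPM in 7 of 8 Rgs5 cells, 0 of 14 other duct-like cells, where the highest value was 2.23 CPM, and 3 of the 17 cells of other classes. Cell 34, highest in Rgs5, was the one listed at 0. Lcn2, which binds bacterial siderophores, was at 159 to 3439 CPM in all 8 and at 100 CPM in 4 of 14. Fn1, the matrix protein fibronectin, was at 351 to 9621 CPM in all 8 and at 100 CPM in 4 of 14. Both genes reached levels in single other duct-like cells that overlapped those of the Rgs5 cells, up to 2009 CPM for Lcn2 and 8925 CPM for Fn1. Serping1, the C1 inhibitor of the complement cascade, was at 100 CPM in 6 of 8 and 2 of 14. Complement C3 itself did not meet the criterion, with 8 of 8 and 8 of 14 cells at 100 CPM and medians of 4403 and 173 CPM.

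Some of the leading genes are plasma proteins of hepatocytes. Gc, the vitamin D binding protein, was at 1454, 60.4, 570, 1840, 1205, 2243, 7247 and 5036 CPM in the 8 cells in the same order, and at 100 CPM in 1 of 14 others. Apob, the apolipoprotein of very low density lipoproteins, was at 0.686, 973, 315, 1106, 595, 501, 1548 and 6458 CPM, and at 100 CPM in 2 of 14 others. Both were therefore also high in Rgs5 cells with few hepatocyte markers, as cell 34 shows. Of the 30 hepatocyte markers, 9 were at 100 CPM in enough duct-like cells to be among the 1757 genes examined, and a gene high in Rgs5 cells alone enters that way. Of these 9, 5 were higher (Apob, Trf, Serpina1b, Hp and Gc) and 0 lower, beside 3.59% and 0.455% of all 1757. Serpina1b was at 100 CPM in 4 of the 4 hepatocyte-rich Rgs5 cells and 0 of the 4 remaining ones, and Hp in 4 and 1. Apob, Trf and Gc were at that level in 4 and 3. The median difference was 0 points over all 30 measured and over all 10061 genes. Serpina1b belongs to a family of near-identical copies, and how its reads were divided among them is uncertain. Without the 4 hepatocyte-rich cells, Gc had a difference of 67.9 points in place of 80.4, Apob 60.7 in place of 73.2 and Ccl2 75 in place of 87.5.

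Among the remaining leading genes, Ctsl, a lysosomal protease, was at 100 CPM in 7 of 8 and 2 of 14. The nuclear lamina gene Lmna was at 369 to 1988 CPM in all 8 Rgs5 cells and at 100 CPM in 6 of 14 others. B4galt5, a galactosyltransferase, and the RNA binding protein gene Syncrip were each at 100 CPM in 6 of 8 and 1 of 14. Pcf11, a factor of mRNA 3' end formation, was at that level in 6 of 8 and 2 of 14. The surface receptor Cd44, the tetraspanin Cd9, the galectin Lgals1 and the endosomal protein Litaf were each at 100 CPM in 7 of 8 and 4 of 14. Of the 15 leading genes, 14 still met the criterion against the 5 other cells numbered 19 or higher, the exception being Cd9 at 47.5 points. Each of the 15 met it when any single Rgs5 cell was left out. Their shares and differences made that certain, so it adds no support. Without the 4 hepatocyte-rich cells 11 met it, and B4galt5, Syncrip, Litaf and Lgals1 missed it. With the 900 highest genes of a cell 10 met it, and Serping1, Cd44, Litaf, Lgals1 and Cd9 missed it.

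Pigr had the most negative difference of the 1757 genes. It encodes the receptor that carries polymeric immunoglobulin across the duct epithelium into bile. Its levels were 4.76, 2.16, 11.3, 1.23, 7.22, 0.272, 3.38 and 0.628 CPM in the Rgs5 cells, while 10 of the 14 other duct-like cells were at 100 CPM, with a median of 1727 CPM. Among the 5 others numbered 19 or higher, 2 were at 100 CPM, a difference of -40 points, which misses the criterion. The mitochondrial genes Atp5j2, a subunit of ATP synthase, and Chchd2 were at 100 CPM in 0 of 8 Rgs5 cells and in 9 and 8 of 14. The ribosomal protein gene Rps25 was at that level in 2 of 8 and 11 of 14, and the chromatin protein gene Hmgb1 in 1 of 8 and 10 of 14. Gas6, a ligand of the TAM receptor kinases, had 1 of 8 and 9 of 14. The interferon-induced GTPase gene Tgtp1 and the Wnt pathway transcription factor gene Tcf7l2 had 0 of 8 and 7 of 14 each. Txnip and Iqgap1, with 1 of 8 and 8 of 14 each, fell short of the criterion. At a threshold of 10 CPM for Rgs5 and all genes, 2 of the 8 lower genes still met it.

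**Figure D4:**
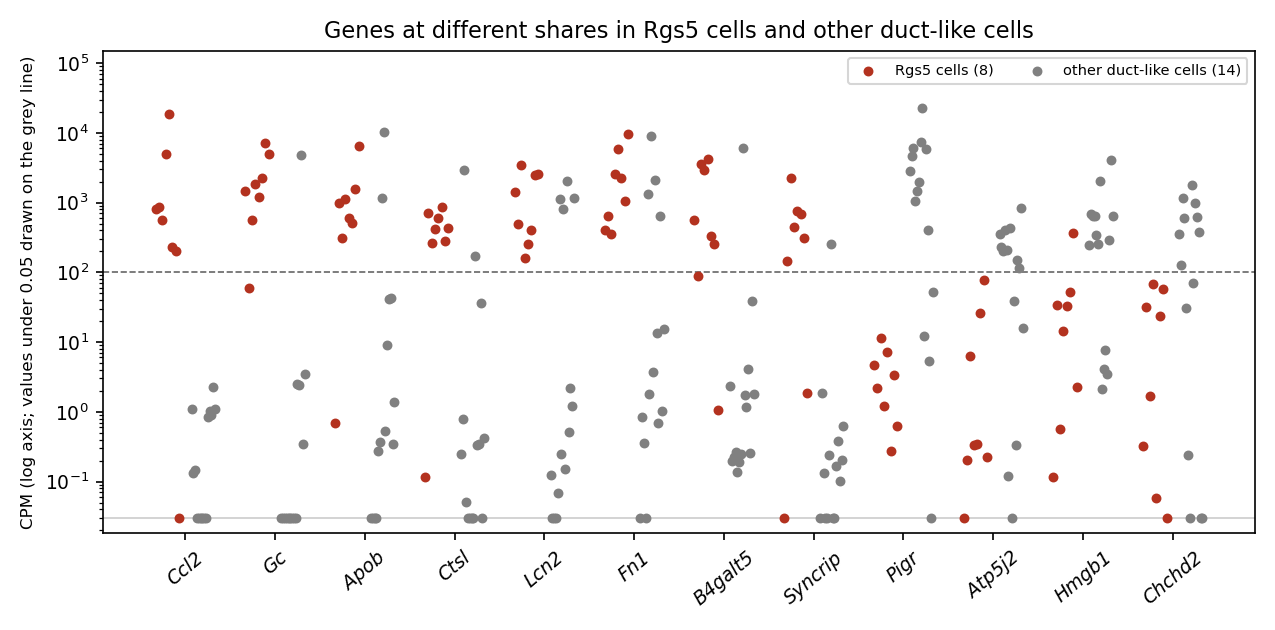
Level (CPM, log axis, with values under 0.05 CPM drawn on the grey line) of 8 genes with the largest positive and 4 with the most negative difference in share, each point 1 cell, in the 8 Rgs5 cells (red) and the 14 other duct-like cells (grey); the dashed line marks 100 CPM. Ccl2 is at 201 CPM or more in 7 of the 8 Rgs5 cells and at most 2.23 CPM in the others, while Pigr is at most 11.3 CPM in the 8.

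Among other R4 family members, Rgs3 was found in part of the Rgs5 cells. Of the 10 R4 genes, Rgs2, Rgs3 and Rgs5 were measured. Rgs3, a regulator of the same Gi and Gq subunits, was at 161 CPM in cell 19, 410 in cell 25, 1709 in cell 28 and 1101 in cell 34. The other 4 Rgs5 cells held at most 0.0676 CPM. No cell outside the 8 reached 100 CPM, the highest being 4.60 CPM, so Rgs3 met the criterion at 50 points. A gene examined through 4 Rgs5 cells alone always has 50 points, so this call follows from the filter. Rgs2, which prefers Gq, was at 100 CPM in 2 of 8 (339 CPM in cell 20 and 243 in cell 27), 1 of 14 and 2 of 17. Each of these 2 cells was without Rgs3 at 100 CPM. Of the 10 measured genes with other RGS domains 3 were examined, and 0 met the criterion in either direction.

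For the G proteins on which Rgs5 acts and their partners, few genes could be examined. Only genes at 100 CPM in at least 4 duct-like cells were, which left 3 of 7 measured G alpha genes, 4 of 7 G beta and gamma genes, 3 of 20 receptors, 5 of 20 effectors and 2 of 8 N-degron genes. With 3.59% of all examined genes higher and 0.455% lower, a count of 0 in such lists is near the background and is no result about them. Of the G alpha genes, 0 were higher and 0 lower. Gnai2, a Gi subunit, was at 100 CPM in 4 of 8 and 5 of 14, and Gnas, the Gs subunit, in 6 of 8 and 6 of 14. Gna11, of the Gq class, was at 0.443 to 7.99 CPM in the Rgs5 cells and at 100 CPM in 5 of 14 others, none of them among the 5 numbered 19 or higher. Its Spearman rho with Rgs5 over the duct-like cells was -0.67. Of the 4 examined G beta and gamma genes, 0 met the criterion, with Gnb1 at 100 CPM in 6 of 8 and 7 of 14 and Gng5 in 5 of 8 and 6 of 14. Of 41 listed receptors 20 were measured, and 0 of the 3 examined met it. The protease-activated receptor F2rl1 was at 100 CPM in 3 of 8 and 3 of 14, Smo of the hedgehog pathway in 3 of 8 and 0 of 14, and Gabbr1, a GABA-B receptor subunit, in 2 of 8 and 0 of 14. Agtr1a (angiotensin II) and F2r (thrombin) were at that level in 1 Rgs5 cell each, at 867 and 823 CPM, and in 0 of 14.

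Downstream, 0 of the 5 examined effector genes met the criterion. Prkar1a, a regulatory subunit of protein kinase A, was at 100 CPM in 3 of 8 and 8 of 14, and the small GTPase gene Rhoa in 3 of 8 and 1 of 14. Neither examined N-degron gene met it, with the ubiquitin ligase gene Ubr4 at 100 CPM in 4 of 8 and 3 of 14. The median difference over all measured members was 0 points for the G alpha subunits and receptors, -0.89 for the effectors and 8.04 for the N-degron list, beside 0 over all 10061 genes.

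**Figure D5:**
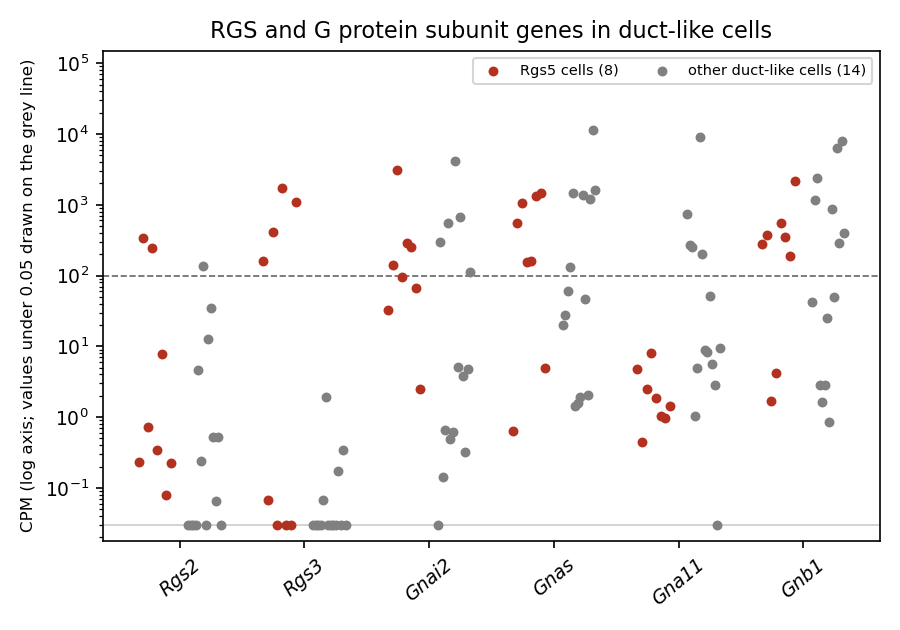
Level (CPM, log axis, with values under 0.05 CPM drawn on the grey line) of 2 R4 family genes and 4 G protein subunit genes, each point 1 cell, in the 8 Rgs5 cells (red) and the 14 other duct-like cells (grey). Above the dashed line at 100 CPM, Rgs3 has 4 of 8 and 0 of 14 cells and Gna11 0 of 8 and 5 of 14.

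Hypoxia and early response genes were followed because Rgs5 is known to respond to low oxygen and because tissue dissociation induces early genes. Of 21 measured hypoxia genes, Slc2a1, the glucose transporter GLUT1, was the single one that met the criterion, with 5 of 8 and 1 of 14. Of the 21, 7 were examined, 2 with a higher and 5 with a lower share in Rgs5 cells, and their median difference was -12.5 points. With 7 genes, 1 call is too few to set against the background of 3.59% and is no result about the list. Slc2a1 was at 1868 CPM in cell 19, 735 in cell 25 and 101 to 189 CPM in cells 27, 31 and 34. Ldha, lactate dehydrogenase A, was at 100 CPM in 5 of 8 and 2 of 14, the glycolytic enzyme gene Aldoa in 3 of 8 and 7 of 14, and Hif1a in 2 of 8 and 5 of 14. The angiogenic factor gene Vegfa and the enolase gene Eno1 were at that level in 0 of 8 and 4 of 14 each. Of 24 measured immediate early genes 18 were examined and 1 was higher, the transcription factor gene Klf4, again too few to set against 3.59%. Immediate early genes at 100 CPM numbered 6 to 17 (median 14.5) in the Rgs5 cells and 7 to 16 (median 12) in the others, overlapping ranges.

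Likeness to Rgs5 over cells was ranked by Spearman's rho of CPM, a description without p-value, as the cells share depth and the Rgs5 pattern is nearly on or off. Over the 22 duct-like cells the highest were Gc (0.83), the procollagen protease gene Bmp1 (0.82), Zc3h15 (0.81), Sfr1 (0.77), the membrane linker gene Msn (0.75), Hn1 (0.72), the sphingosine-1-phosphate transporter gene Spns2 (0.71), the cathepsin gene Ctsh (0.70), Arl5a (0.70) and the tubulin gene Tubb5 (0.69). The median of the 1757 genes was 0.099, and Pigr was lowest at -0.76. A high rho did not require presence in most Rgs5 cells, since ranks count traces: Bmp1 was at 100 CPM in 3 of 8. Zc3h15, Msn and Hn1 were each at 100 CPM in 5 of 8 and 0 of 14. Over all 39 cells the highest were Ier3 (0.65), Smyd2 (0.64), Slc2a1 (0.63), Arl5a (0.61), Gpx3 (0.60), Qser1 (0.60), the lipopolysaccharide receptor gene Cd14 (0.60), Zc3h15 (0.59), Pcf11 (0.58) and Trappc4 (0.58). Pearson's r on log2(CPM + 1) returned 5 of the 10 duct-like names and 0 of the 10 names over all cells. Spearman's rho over the duct-like cells numbered 19 or higher returned 2 of the 10. Both rankings therefore depend on the measure or the cells used.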

How the data were processed

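Single GFP-sorted liver cells were sequenced, 39 in 1 group. The authors deposited log2 values for 13568 transcripts under 10061 symbols. Bowtie 0.12.9, eXpress 1.5.1, edgeR and mm9 are named, per the submitters' processing notes. The lowest log2 value, -2.58, was taken as no reads. CPM was computed as 2 to the deposited value minus 0.167, and transcripts of a symbol were summed. Scale and unit were inferred from the values. The CPM of a cell summed to 351255 to 3.12833e+06, and 1 read was worth 0.0241 to 0.273 CPM in cells 1 to 37, so 100 CPM stood for 367 to 4151 reads. In those cells 33.7% to 52.7% of low values lay within 0.02 read of whole multiples. In cells 38 and 39 the depth is unknown.

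Cells were clustered (Ward, log2(CPM + 1), mean silhouette 0.336) with Python 3.11.15, pandas 2.3.3, scipy 1.17.1 and scikit-learn 1.9.0. The share comparison was tested on simulated data. Named genes were the 15 with the largest difference in share among genes at 100 CPM in at least 75% of Rgs5 cells, the 10 most negative, the 10 most alike on each set of cells, R4 members, and list members at 100 CPM in an Rgs5 cell. The members and lists were chosen with earlier results of these data known. No cell was removed.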

Additional observations from a re-analysis of the deposited data

How the results depend on the processing

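The 8 Rgs5 cells were the same with thresholds of 10 and 100 CPM and with every cell rescaled to an equal sum. In the duct-like class their number was 8 with 3 alternatives and 4 with duct-like cells defined by marker counts. The count of higher genes was 63 of 1757 (3.59%), and at 10 CPM it was 137 of 3561 (3.85%), with 35 genes in both. The count of lower genes was 8, and it was 14 with Rgs5 at 1000 CPM. Of the 15 leading genes, 11 met the criterion at 10 CPM, 9 with Rgs5 at 1000 CPM, 13 against all other cells and 11 after rescaling. The following alternatives were chosen after seeing the data. Against other duct-like cells numbered 19 or higher there were 122 higher and 32 lower genes. Without the Rgs5 cells with 10 or more hepatocyte markers there were 108 and 19, and with the 900 highest genes of a cell 39 and 14. Leaving out 1 Rgs5 cell at a time gave 72 to 96 higher genes (96 without cell 34) and 8 to 14 lower ones (14 without cell 25). With fewer cells in an arm, 1 cell is a larger step in the share. At 10 CPM the difference of Iqgap1 reversed to 30.4 points, and the cause was not tested. Other differences kept their sign but not their size, such as Cd9 at 23.2 points, Hmgb1 at -8.93 and Rps25 at -5.36 at 10 CPM. Of the 10 genes most like Rgs5 in duct-like cells, Pearson's r on log2(CPM + 1), log2(CPM + 0.1) and log2(CPM + 10) returned 5, 6 and 5, and cells numbered 19 or higher returned 2. Over all 39 cells Pearson's r returned 0, 2 and 1. No paired analysis was possible because the labels give 1 group of cells. At 100 CPM a gene had 367 reads or more in cells 1 to 37, and the depth of cells 38 and 39 is unknown.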

Other observations

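Of 498 genes at 100 CPM in at least 4 Rgs5 cells, 33, Rgs5 included, reached 100 CPM in no other duct-like cell. These names were chosen after their values were seen. They include Ccl2 (7 of 8), Cdh2, the N-cadherin gene (4 of 8), Col18a1, a basement membrane collagen gene (4 of 8), the BMP receptor gene Bmpr2 (4 of 8) and the collagen receptor gene Ddr1 (4 of 8). Only 5 of the 33 reached 100 CPM in no other of the 39 cells: Rgs5, Rgs3, B3gnt2, Fstl3 and Sh3d19. Fstl3 encodes a secreted binder of activins, and B3gnt2 an enzyme that extends polylactosamine chains.

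Of the genes beside Rgs5 on chromosome 1 in the RefSeq order, the 2 given here did not reach 100 CPM in any Rgs5 cell. Nuf2, beside it on one side, reached 5.80 CPM at most in an Rgs5 cell. On the other side, Rgs4 and Ccdc190 are not analysed here, and Hsd17b7 reached 2.19 CPM at most.

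Traces of Rgs5, at least 0.9 of a read and under 100 CPM, were found in 4 of the 18 cells numbered 1 to 18 (22.2%) and in 9 of the 11 remaining cells numbered 19 to 37 (81.8%). For 134 other genes at 100 CPM in at least 4 of cells 19 to 37 and in no other cell, the median shares were 33.3% and 59.2%. Where these reads came from was not tested.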
